A study of Mus musculus with 12 samples.

Results

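Autophagy delivers cytoplasm and organelles to the lysosome for breakdown, and the 36 genes described here encode its machinery, its mitochondrial receptors and the enzymes and membrane proteins of the lysosome. They were taken as a named list, and each gene was read from the probeset that carries its symbol alone and has the highest mean over all arrays. Of the 36, 35 had such a probeset and all 35 passed the filter on dim genes, out of 22180 named genes and 13308 tested ones. Bnip3l, a mitophagy receptor, shares its probeset with a pseudogene and was not analysed here.

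Transcript levels were measured in gastrocnemius, a calf muscle, of FVB mice aged 2 to 3 months on Affymetrix whole-transcript arrays, with 3 arrays, stated to be biological replicates, in each of 4 groups. The groups were sedentary wild type, sedentary ERRα-null, and both genotypes 2 h after an exhaustive treadmill run. ERRα, the product of Esrra, is a nuclear receptor without a known natural ligand that switches on genes of mitochondrial energy supply, and the study asks which muscle transcripts depend on it at rest and after exercise. Levels are log2 values, so that a difference of 1 is a doubling, and a level is not compared between genes because probes differ in brightness.

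All arrays were labelled male, but 3 of the 12 had Xist above the Y-linked Eif2s3y, namely exercised wild-type replicate 3 and exercised ERRα-null replicates 2 and 3. Fits without these 3 arrays rest on 1 exercised ERRα-null array, replicate 1. Groups follow the sample titles, because another label gives a different exercise state for sedentary ERRα-null and exercised wild-type arrays. Esrra ran from 7.41 to 7.63 on the 6 wild-type arrays and from 6.55 to 6.89 on the 6 ERRα-null arrays, without overlap. Transcripts of 12 muscle fibre markers were abundant on every array, with list means from 12.54 to 12.74. Some sedentary arrays also carried transcripts of other tissues. The mean of 8 adipocyte markers ran from 6.84 to 9.89 in sedentary wild type and from 7.29 to 9.09 in sedentary ERRα-null muscle, against 7.22 to 7.97 in the exercised groups. The mean of 9 liver markers ran from 5.47 to 9.99 in sedentary wild type and from 5.48 to 8.55 in sedentary ERRα-null muscle. After exercise it ran from 5.76 to 7.62 and from 5.65 to 6.74, so that sedentary and exercised ranges overlapped in both genotypes. The mean of 8 lymphocyte markers reached 7.38 and 8.0 in the same sedentary groups, against at most 5.73 after exercise. Of the 5 lymphocyte markers tested, 1 was called lower in ERRα-null muscle averaged over states, against 0.999% of all tested genes. It was the immunoglobulin gene Ighm, lower by 1.99 (adjusted p = 0.00461). In the same limma model Ighm changed with exercise by -0.14 in wild type (adjusted p = 0.903) and by -1.32 in ERRα-null muscle (adjusted p = 0.153). In whole muscle, fewer cells of a type and less RNA per cell cannot be told apart.

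In muscle, autophagy clears damaged mitochondria and supplies amino acids during fasting and exercise. The ULK kinase complex starts it, a lipid kinase complex built on Pik3c3 marks the forming membrane, and conjugation enzymes attach the ATG8 family (the LC3 and GABARAP proteins) to that membrane, where receptors such as Sqstm1 dock cargo. The lysosome, acidified by the vacuolar ATPase, then degrades the content with cathepsins and glycosidases. TFEB, a transcription factor held in the cytoplasm by mTORC1, activates many of these genes through the CLEAR element, whose core is the E-box CACGTG.

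Promoter sequence from RefSeq (GRCm38.p6), in windows from 250 bases before to 50 after the annotated start, was found for 29 of the 36 genes. The core CACGTG, a palindrome and so the same on both strands, stood in the windows of 11 of the 29 (37.9%), against 8.09% of all 27025 genes with a window. These are Atg3, Atg5, Atg7, Atg14, Bnip3, Lamp1, Ctsa, Ctsd, Ctsf, Ctsl and Gaa. The full 10-base CLEAR element was in none of them (0.37% of all genes), nor was the ERR response element TCAAGGTCA (0.466%) or the FOXO site GTAAACA (4.05%), each searched on both strands. Base composition was not matched in this comparison, and a match describes letters only. The 250 bases before the start are shown for the 3 genes that passed a test of genotype or exercise below, because they let the reader set the promoter of each beside its response. Capitals mark CACGTG. They lie on the plus strand at chr19:4854915-4855164 for Ctsf, chr6:129532942-129533191 for Gabarapl1 and chr9:105642745-105642994 for Pik3r4.
Ctsf: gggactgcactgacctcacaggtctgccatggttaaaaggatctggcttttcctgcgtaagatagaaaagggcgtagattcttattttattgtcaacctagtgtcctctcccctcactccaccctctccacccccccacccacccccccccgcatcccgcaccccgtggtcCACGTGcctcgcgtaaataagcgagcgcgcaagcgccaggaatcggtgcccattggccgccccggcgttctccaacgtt
Gabarapl1: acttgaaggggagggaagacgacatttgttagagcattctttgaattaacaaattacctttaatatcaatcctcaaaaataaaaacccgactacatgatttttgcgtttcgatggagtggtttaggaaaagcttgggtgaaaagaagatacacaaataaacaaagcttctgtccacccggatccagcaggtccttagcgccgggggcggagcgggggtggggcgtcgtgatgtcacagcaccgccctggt
Pik3r4: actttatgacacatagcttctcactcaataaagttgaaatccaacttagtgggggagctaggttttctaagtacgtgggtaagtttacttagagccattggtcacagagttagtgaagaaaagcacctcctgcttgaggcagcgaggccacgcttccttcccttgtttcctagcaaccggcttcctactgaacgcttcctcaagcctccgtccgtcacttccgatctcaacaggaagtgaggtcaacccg

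The core lies at position -79 from the start in Ctsf, and neither Gabarapl1 nor Pik3r4 has it in its window. For comparison, the sites of 3 lysosomal genes that changed in no test are shown with 6 bases on each side. Lamp1 has 4 copies within its window, between positions -61 and -15, and Ctsd has a copy at -98 and another at -245.
Lamp1, position -61: agatatCACGTGgtccag
Lamp1, position -45: agcgccCACGTGatgccg
Lamp1, position -28: gactggCACGTGaccaca
Lamp1, position -15: ccacatCACGTGcggaac
Ctsd, position -98: gcgtctCACGTGacccgt
Gaa, position -140: tgcgatCACGTGtttgac
Of the 3 genes called in any comparison 1 carries the core, and the other 10 genes with a core were called in none.

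At rest, loss of ERRα went with a higher level of 1 of the 35 genes, Ctsf, which encodes the lysosomal cysteine protease cathepsin F. Its log2 levels were 6.28, 6.12 and 6.26 in sedentary wild type and 6.79, 7.05 and 6.98 in sedentary ERRα-null muscle. After exercise they were 6.20, 6.39 and 6.28 in wild type and 6.82, 6.65 and 6.89 in ERRα-null muscle. Every ERRα-null array was above every wild-type array over both states, a separation seen in either direction for 1.5% of all tested genes. The difference was 0.72 ± 0.10 log2 at rest (1.65-fold, adjusted p = 0.0238) and 0.61 ± 0.07 averaged over both states (1.52-fold, adjusted p = 0.00272). After exercise it was 0.49 ± 0.10 (1.41-fold, adjusted p = 0.0572), which missed the threshold of 0.05. Values after ± are standard errors of the limma model, which was fitted to all 12 arrays with p-values adjusted over all 13308 tested genes. Ctsf did not respond detectably to exercise, with changes of 0.07 in wild type (adjusted p = 0.792) and -0.16 in ERRα-null muscle (adjusted p = 0.534).

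**Figure D1:**
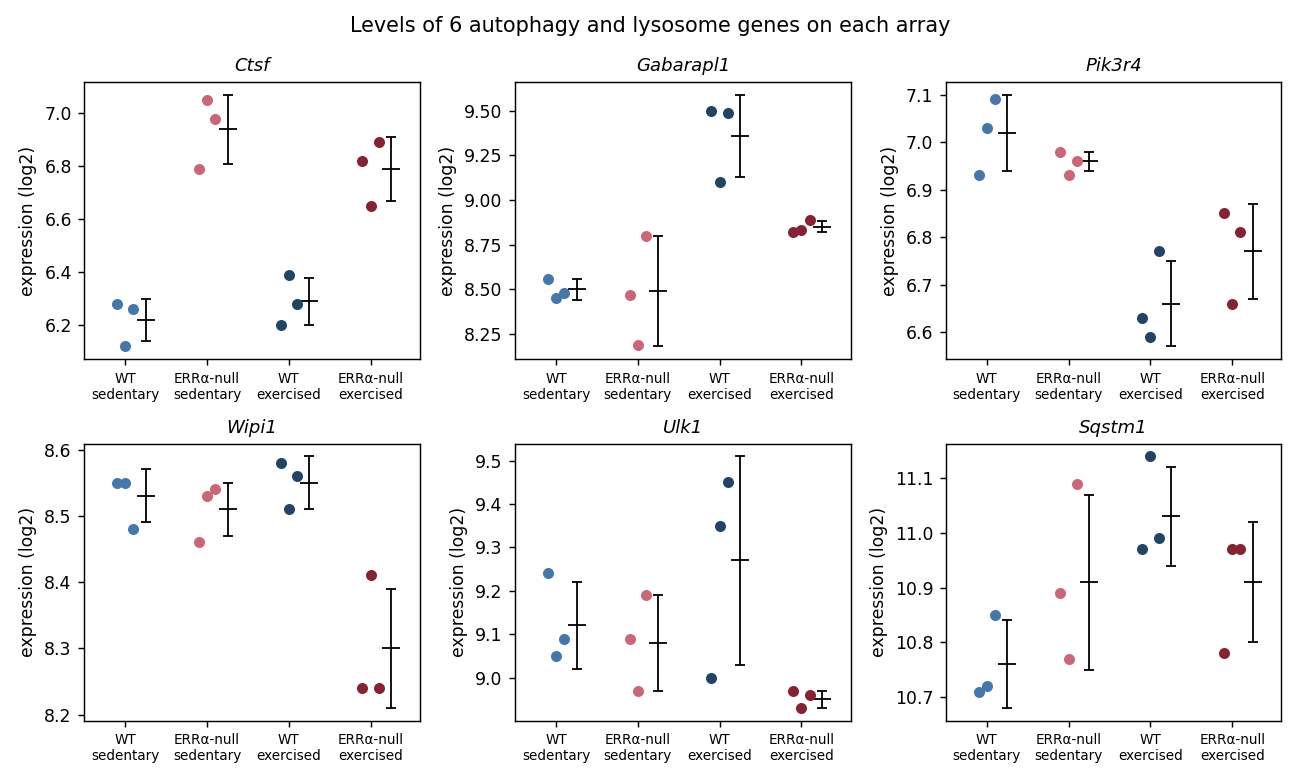
Log2 expression (y axis) of 6 genes on each of the 12 arrays (points), by genotype and exercise state (x axis), with the mean and SD of the 3 arrays of a group beside them. Ctsf is higher on all 6 ERRα-null arrays, Gabarapl1 is highest in exercised wild type, Pik3r4 is lower after exercise, and Wipi1 is lowest on the 3 exercised ERRα-null arrays (8.24 to 8.41).

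The call of Ctsf at rest was close to the threshold. It was lost without any 1 of the 3 sedentary wild-type arrays, without sedentary ERRα-null replicate 2 or 3 and without exercised ERRα-null replicate 3, with adjusted p from 0.0516 to 0.139 and differences from 0.67 to 0.75. It was also lost with centring of each array (adjusted p = 0.0502), the adipocyte, liver and lymphocyte marker means as covariates (0.67, adjusted p = 0.0527), a replicate block (adjusted p = 0.0592), with the 3 female-profile arrays left out (adjusted p = 0.123) and in a fit of only the arrays compared (adjusted p = 0.177, and 0.649 with the block), so that 12 of 23 alternatives ended it. The averaged difference was called without each single array in turn, and without the 3 arrays of female profile it was 0.62 (adjusted p = 0.0925). The difference after exercise passed without sedentary ERRα-null replicate 1 (adjusted p = 0.0446). A call of 1 in 35 stands against 0.0827% of all tested genes called for genotype at rest and 1.43% for genotype averaged over both states.

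Ctsf and Esrra lie on the same chromosome, 19, with 129 RefSeq genes between them, 91 of them protein-coding. Of the 72 that were tested, 0 were called for genotype at rest by limma, 1 after exercise (1.39%) and 2 in the average (2.78%). Over all tested genes these shares were 0.0827%, 0.376% and 1.43%. Trmt112 was higher in ERRα-null muscle by 0.47 in the average (adjusted p = 0.00272) and by 0.50 after exercise (adjusted p = 0.0227). Dpp3 was higher by 0.30 in the average (adjusted p = 0.0244). These neighbours were named after their values were seen. The part of chromosomal position in the Ctsf difference was not tested.

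None of the other 5 cathepsins was called for genotype by limma, at rest, after exercise or averaged. Ctsb, cathepsin B, was at 11.28, 11.32 and 11.57 in sedentary wild type and at 11.15, 11.10 and 11.20 in sedentary ERRα-null muscle, without overlap, and the difference of -0.24 ± 0.08 did not pass (adjusted p = 0.436, and -0.15 without sedentary wild-type replicate 3). Averaged over both states it was -0.19 ± 0.06 (adjusted p = 0.151). Ctsd, the aspartic protease cathepsin D, was at 11.37, 11.38 and 11.18 in exercised wild type and at 10.88, 11.14 and 11.02 in exercised ERRα-null muscle. These groups did not overlap, and the difference was -0.30 ± 0.09 (adjusted p = 0.236). With the 3 female-profile arrays left out it was -0.50, resting on 1 exercised ERRα-null array, replicate 1 at 10.88. Averaged over both states the smallest p after Ctsf and Ctsb were those of Wipi1 (-0.13 ± 0.05, adjusted p = 0.259), Ctsd (-0.18 ± 0.07, adjusted p = 0.262) and Gabarapl1 (-0.26 ± 0.10, adjusted p = 0.279). Ctsz, a carboxypeptidase, differed by -0.16 ± 0.09 at rest (adjusted p = 0.704, and -0.08 without sedentary ERRα-null replicate 2). Over all 12 arrays Ctsa, the protective protein of lysosomal galactosidase, stayed between 9.62 and 9.92. Ctsl, cathepsin L, ran from 8.31 to 8.94 and Ctsz from 8.34 to 8.77.

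Over the 35 genes, the genotype difference at rest had a median of 0.02, with 14 of 35 below 0, against a median of 0 and 50.4% below 0 over all tested genes. Single arrays set its direction, with a median of -0.03 and 20 below 0 without sedentary ERRα-null replicate 3, and 0.06 and 12 below 0 without replicate 1 of that group. Wild-type and ERRα-null arrays were fully separated for 5 of the 35 (14.3%), against 13.4% of all tested genes, so that this share was near the background. Nbr1, Ctsf and Gaa were the higher ones (6.91% of all tested genes) and Pik3c3 and Ctsb the lower ones (6.53%). The margin of Nbr1 was narrow, at 9.13 against 9.14 on the nearest arrays. Gaa, the enzyme that breaks down lysosomal glycogen, was at 9.89, 9.84 and 9.84 in wild type and at 9.99, 9.95 and 10.02 in ERRα-null muscle at rest (difference 0.13 ± 0.06, adjusted p = 0.614). Tfeb, whose levels of 5.36 to 5.94 lie close to the filter at 5.32, differed by 0.24 ± 0.12 (adjusted p = 0.641), and by 0.12 without sedentary wild-type replicate 3. The 2 lysosomal membrane glycoproteins Lamp1 (11.04 to 11.34) and Lamp2 (8.92 to 9.28) differed by 0.04 and 0.12.

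Exercise raised Gabarapl1 in wild-type muscle and lowered Pik3r4. Gabarapl1 encodes a GABARAP-type member of the ATG8 family that is conjugated to autophagosome membranes. Its levels were 8.56, 8.45 and 8.48 in sedentary and 9.50, 9.10 and 9.49 in exercised wild type, so that all exercised arrays were above all sedentary ones. The change was 0.87 ± 0.14 log2 (1.82-fold, adjusted p = 0.00567). In ERRα-null muscle the levels were 8.47, 8.19 and 8.80 before and 8.82, 8.83 and 8.89 after exercise. The exercised ERRα-null arrays lay just above their sedentary arrays and below all 3 exercised wild-type arrays. The change in ERRα-null muscle was 0.36 ± 0.14 (1.28-fold, adjusted p = 0.299) and did not pass. The difference between the 2 changes was -0.51 ± 0.20 (95% interval -0.94 to -0.07, unadjusted p = 0.0265, adjusted p = 0.948), so that over all genes tested a genotype dependence of the response was not called. Averaged over genotypes, exercise raised Gabarapl1 by 0.61 ± 0.10 (1.53-fold, adjusted p = 0.00356). After exercise ERRα-null muscle was 0.52 ± 0.14 below wild type (adjusted p = 0.16), and at rest the difference was -0.01.

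None of the other 4 ATG8 genes was called for exercise. Map1lc3a was at 8.85, 8.97 and 8.76 in sedentary and 9.0, 9.26 and 9.08 in exercised wild type, without overlap, a change of 0.25 ± 0.09 (adjusted p = 0.191). In ERRα-null muscle it went from 8.67, 8.86 and 8.91 to 8.90, 8.77 and 8.86, which overlap (0.03). Map1lc3b, whose protein LC3B is the usual autophagosome marker, changed by 0.13 in wild type with a 95% interval of -0.15 to 0.42. The intervals of Gabarap (-0.06 to 0.17) and Gabarapl2 (-0.16 to 0.13) exclude a change in wild type as large as the lower bound for Gabarapl1, 0.56. Gabarap has a second probeset, whose changes were -0.04 in wild type and 0.07 in ERRα-null muscle. Levels over all 12 arrays ran from 10.84 to 11.46 for Map1lc3b, from 11.47 to 11.64 for Gabarap and from 7.72 to 7.85 for Gabarapl2.

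**Figure D2:**
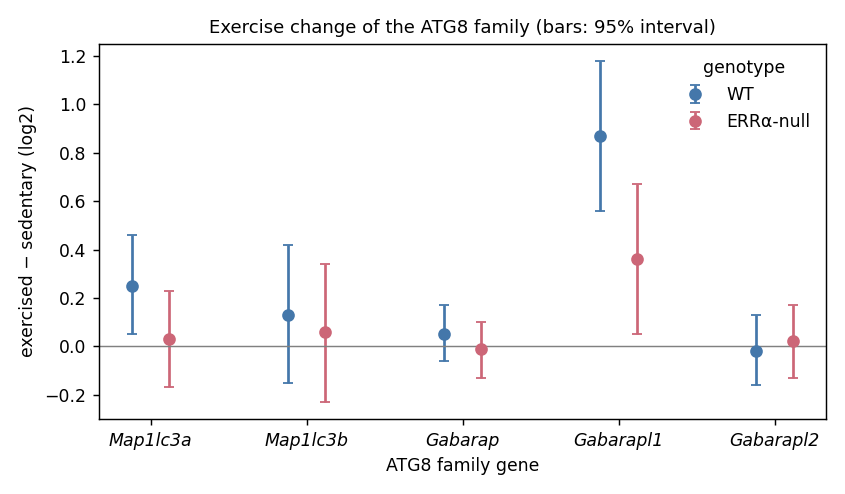
Change with exercise in log2 (y axis) of the 5 ATG8 family genes (x axis) in wild type and ERRα-null muscle, with 95% intervals of the limma model. The interval of Gabarapl1 in wild type runs from 0.56 to 1.18, and the other intervals in wild type end at 0.46 or lower.

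Pik3r4 encodes the regulatory subunit VPS15 of the lipid kinase complex. Its levels were 6.93, 7.03 and 7.09 in sedentary and 6.63, 6.59 and 6.77 in exercised wild type, without overlap. The change was -0.35 ± 0.08 (0.782-fold, adjusted p = 0.0416). In ERRα-null muscle the levels were 6.98, 6.93 and 6.96 before and 6.85, 6.66 and 6.81 after exercise, again without overlap. The change there was -0.18 ± 0.08 (adjusted p = 0.38). With the 3 female-profile arrays left out it was -0.11, resting on 1 exercised ERRα-null array, replicate 1 at 6.85. Averaged over genotypes Pik3r4 fell by 0.27 ± 0.06 (0.83-fold, adjusted p = 0.0187). Pik3c3, the catalytic subunit VPS34 of the same complex, was at 7.33, 7.39 and 7.52 in sedentary and 7.17, 7.13 and 7.16 in exercised wild type. These did not overlap, and the change of -0.26 ± 0.08 did not pass (adjusted p = 0.111, and 0.0857 for the average of -0.18). Becn1, the scaffold of the complex, changed by 0.04 in wild type, with levels between 7.68 and 8.01 over all arrays.

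The call of Pik3r4 in wild type was lost without sedentary wild-type replicate 1, 2 or 3, exercised wild-type replicate 1 or 2, sedentary ERRα-null replicate 2 or 3, or exercised ERRα-null replicate 3, with changes from -0.40 to -0.32 and adjusted p from 0.0526 to 0.152. Its averaged call was lost without exercised ERRα-null replicate 2 (-0.24, adjusted p = 0.052). Gabarapl1 was called without each single array in turn, and its uncalled change in ERRα-null muscle was 0.21 without sedentary ERRα-null replicate 2. Without the 3 arrays of female profile, Gabarapl1 changed by 0.80 in wild type (adjusted p = 0.071) and 0.57 in the average (adjusted p = 0.116), and Pik3r4 by -0.41 (adjusted p = 0.0739) and -0.26 (adjusted p = 0.169). With the adipocyte, liver and lymphocyte marker means as covariates, Gabarapl1 changed by 0.87 in wild type (adjusted p = 0.104) and Pik3r4 by -0.41 (adjusted p = 0.208).

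The 2 calls of 35 for exercise in wild type (5.71%) compare with 3.43% of all tested genes, and the 2 calls in the average with 6.57%, so that these shares were near the background. Arrays did not overlap for 10 of the 35 in wild type (28.6%, against 21% of all tested genes). The 6 higher after exercise (17.1%, against 10%) were Map1lc3a, Gabarapl1, Sqstm1, Nbr1, Gaa and Hexa. The 4 lower ones (11.4%, against 11%) were Pik3c3, Pik3r4, Atg16l1 and Ctsz. Margins were narrow for Nbr1 (9.13 against 9.14 on the nearest arrays) and Atg16l1 (6.97 against 6.95), among others. Sqstm1, the cargo receptor p62, was at 10.71, 10.72 and 10.85 in sedentary and 10.97, 11.14 and 10.99 in exercised wild type (0.28 ± 0.09, adjusted p = 0.13). In ERRα-null muscle it was at 10.89, 10.77 and 11.09 before and 10.78, 10.97 and 10.97 after exercise, which overlap (-0.01). Gaa was at 10.10, 10.02 and 10.04 in exercised wild type and changed by 0.20 ± 0.06 there (adjusted p = 0.113) and by 0.04 in ERRα-null muscle. Averaged over genotypes Gaa changed by 0.12 ± 0.04 (adjusted p = 0.122) and Atg3 by -0.20 ± 0.07 (adjusted p = 0.0939).

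**Figure D3:**
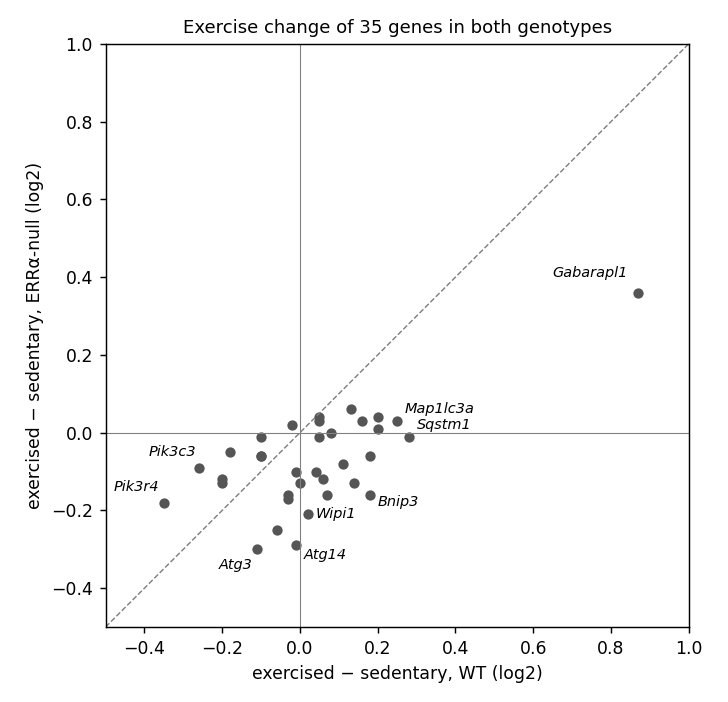
Change with exercise in log2 of the 35 genes in wild type (x axis) and ERRα-null muscle (y axis), 1 point per gene, with a dashed line of equal change. Gabarapl1 lies farthest to the right (0.87 and 0.36), and 26 of the 35 points lie below the dashed line.

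In ERRα-null muscle exercise changed 0 of the 35 genes by limma (5 at an unadjusted p under 0.05, 14.3% against 13.1% of all tested genes), where 0.639% of all tested genes were called. Arrays before and after exercise did not overlap for 7 genes (20%, against 19% of all tested genes). Gabarapl1 was the higher one (against 8.99% of all tested genes), and Ulk1, Pik3r4, Atg14, Wipi1, Atg3 and Lamp2 were lower (17.1%, against 10%), Ulk1 by a margin that vanishes at 2 decimals. Atg3, the conjugating enzyme for the ATG8 family, was at 8.29, 8.46 and 8.38 before and 8.13, 8.03 and 8.09 after exercise (-0.30 ± 0.09, adjusted p = 0.198, and -0.47 with the tissue marker means as covariates). Atg14, the subunit that directs the lipid kinase to autophagosomes, was at 6.69, 6.74 and 6.84 before and 6.53, 6.30 and 6.56 after (-0.29 ± 0.10, adjusted p = 0.215). Wipi1, which reads the lipid made by that kinase, was at 8.46, 8.53 and 8.54 before and 8.24, 8.41 and 8.24 after (-0.21 ± 0.07, adjusted p = 0.225). In wild type the same 3 genes changed by -0.11, -0.01 and 0.02.

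The median exercise change of the 35 genes was 0.04 in wild type, with 15 below 0, and -0.08 in ERRα-null muscle, with 25 below 0 (71.4%), against medians of -0.01 and 52.3% and 52.8% below 0 over all tested genes. For the difference between the changes, ERRα-null minus wild type, the median was -0.14 and 26 of 35 were below 0 (74.3%), against 50.6% of all tested genes. By limma 0 of the 35 differences were called (0.00751% of all tested genes), and 3 had an unadjusted p under 0.05 (8.57%, against 5.12%). These were Gabarapl1 (-0.51), Wipi1 (-0.23 ± 0.10, adjusted p = 0.95) and Sqstm1 (-0.28 ± 0.13, adjusted p = 0.959), each with the lower change in ERRα-null muscle. Atg14 (-0.28 ± 0.13) and the mitophagy receptor Bnip3 (-0.33 ± 0.16) followed, with adjusted p of 0.976 and 0.994. Single arrays moved these medians. The median in wild type was 0.01 without exercised replicate 1 or 3, and that in ERRα-null muscle was -0.04 without sedentary replicate 3. With the adipocyte, liver and lymphocyte scores as covariates the median in wild type was -0.06, and with each array centred on its median 31 of 35 genes were below 0 in ERRα-null muscle. For the difference between the changes the median stayed between -0.16 and -0.11 without each single array in turn, and was -0.12 without the 3 arrays of female profile.

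**Figure D4:**
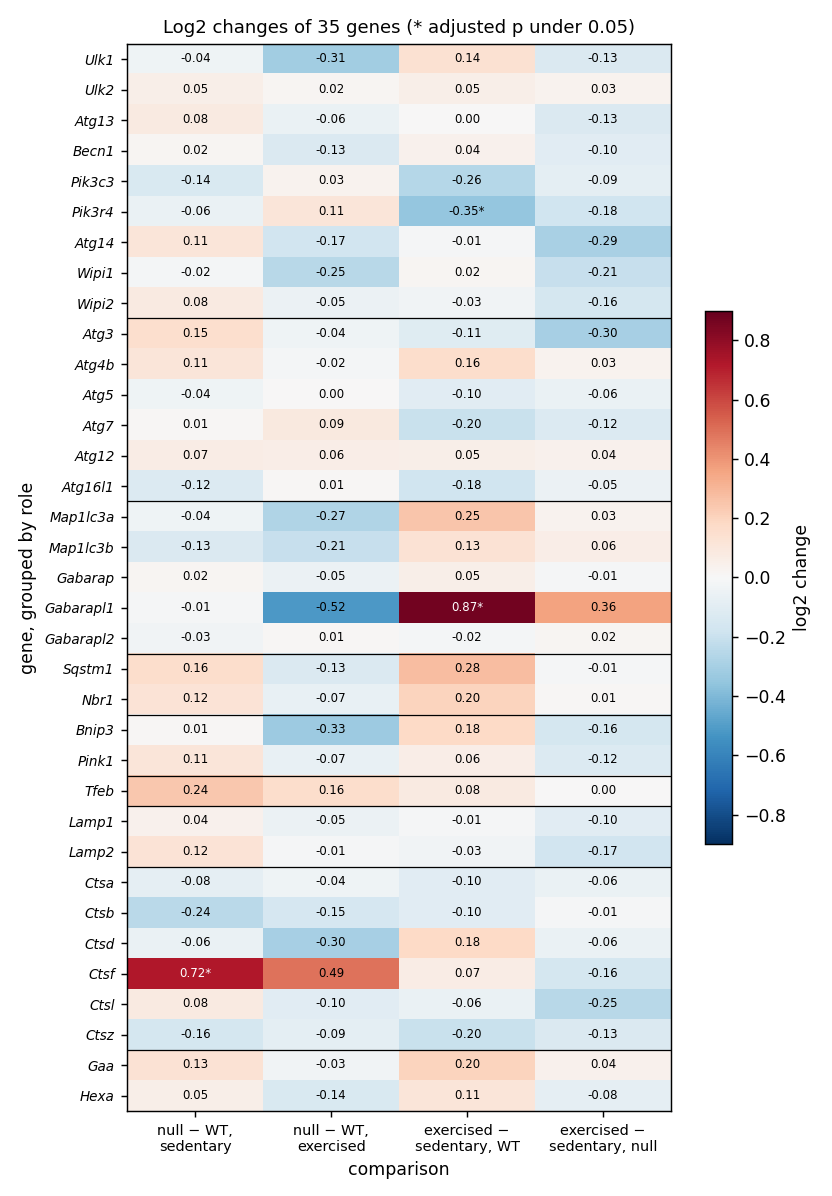
Log2 differences of the 35 genes (rows, grouped by role) in 4 comparisons (columns), as numbers and as colour from blue (lower) to red (higher), with an asterisk at adjusted p under 0.05. The 3 asterisks are at Ctsf for genotype at rest (0.72) and at Gabarapl1 (0.87) and Pik3r4 (-0.35) for exercise in wild type.

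Between the genotypes after exercise, limma called 0 of the 35 genes (0.376% of all tested genes) and 7 had an unadjusted p under 0.05 (20%, against 10.4%). Wild-type and ERRα-null arrays were fully separated for 13 of the 35 (37.1%), against 16% of all tested genes. The 10 lower in ERRα-null muscle (28.6%, against 9.31%) were Ulk1, Becn1, Atg14, Wipi1, Map1lc3a, Gabarapl1, Sqstm1, Bnip3, Ctsd and Hexa, with a margin for Sqstm1 that vanishes at 2 decimals. The 3 higher (8.57%, against 6.64%) were Atg7, Tfeb and Ctsf. Margins were also narrow for Becn1, Atg7 and Tfeb, among others. Their nearest wild-type and ERRα-null arrays were at 7.86 against 7.84, 6.67 against 6.68 and 5.79 against 5.80. The median difference was -0.05 with 26 of 35 below 0 (74.3%), against 0 and 49.6% over all tested genes, and -0.07 with 23 below 0 without the 3 arrays of female profile. The exercised groups are the same arrays as in the exercise changes above, so these values are not independent of them.

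Wipi1 was at 8.58, 8.51 and 8.56 in exercised wild type and at 8.24, 8.41 and 8.24 in exercised ERRα-null muscle, and the latter were the 3 lowest of the 12 arrays. The difference was -0.25 ± 0.07 (adjusted p = 0.172). Ulk1, the kinase that starts autophagy, was at 9.0, 9.35 and 9.45 in exercised wild type and at 8.97, 8.93 and 8.96 in exercised ERRα-null muscle (-0.31 ± 0.11, adjusted p = 0.295). Its wild-type arrays spread widely, and replicate 1 lay near the ERRα-null arrays. Map1lc3a differed by -0.27 ± 0.09 (adjusted p = 0.294), from 9.0, 9.26 and 9.08 to 8.90, 8.77 and 8.86. Bnip3, which recruits ATG8 proteins to mitochondria, was at 9.42, 9.65 and 9.54 in wild type and 9.30, 9.05 and 9.29 in ERRα-null muscle (-0.33, adjusted p = 0.315). Pink1, the kinase that marks damaged mitochondria, differed by -0.07, with levels from 9.92 to 10.24 over all arrays.

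In the 4 comparisons the differences of Atg4b, Atg5, Atg7, Atg12 and Atg16l1 ran from -0.20 to 0.16 and none was called. Atg5 and Atg12, which are joined to each other, stayed between 6.64 and 6.90 and between 6.75 and 7.09. Atg7, the activating enzyme, ran from 6.57 to 7.09, the protease Atg4b from 6.51 to 6.86, and Atg16l1, which places the conjugate on the membrane, from 6.70 to 7.08. Ulk2, the second ULK kinase, ran from 9.63 to 9.88, Atg13, its partner, from 8.29 to 8.78, and Wipi2 from 7.31 to 7.67. The receptor Nbr1 ran from 9.04 to 9.40 and Hexa, a subunit of hexosaminidase, from 8.40 to 8.79. The within-group SD of the 35 genes had a median of 0.105, against 0.14 over all tested genes.

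Further genes of the pathway were read in 6 lists. Among 29 tested genes of mTORC1 and TFEB signalling at the lysosome, 4 rose in wild type (Flcn, Fnip1, Foxo1 and Rheb) and 0 fell, against 2.22% and 1.21% of all tested genes. Flcn, whose product folliculin acts on the Rag GTPases that place mTORC1 on the lysosome, was at 8.03, 7.98 and 7.90 in sedentary and 9.07, 9.30 and 8.98 in exercised wild type. In ERRα-null muscle it was at 7.90, 7.97 and 8.08 before and 8.35, 8.78 and 8.60 after exercise. Neither pair of groups overlapped. The rise was 1.15 ± 0.11 in wild type (2.21-fold, adjusted p = 0.000139) and 0.59 ± 0.11 in ERRα-null muscle (1.51-fold, adjusted p = 0.0423). The difference of the rises was -0.56 ± 0.16 (adjusted p = 0.767). Flcn in wild type passed under all 23 alternatives run, while in ERRα-null muscle it passed with single arrays left out only for exercised wild-type replicates 2 and 3 and exercised ERRα-null replicate 1.

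Fnip1, the partner of folliculin, rose by 0.56 ± 0.11 in wild type (adjusted p = 0.0147), a call lost without sedentary wild-type replicate 3 or exercised wild-type replicate 1. Averaged over genotypes it rose by 0.48 ± 0.08 (adjusted p = 0.00317) and was called without each single array in turn. Foxo1, a transcription factor of muscle protein breakdown, rose by 0.90 ± 0.16 in wild type (adjusted p = 0.0107) and changed by 0.08 in ERRα-null muscle (adjusted p = 0.869), with a difference of -0.82 ± 0.23 (adjusted p = 0.748). Without the arrays of female profile Flcn was the 1 gene of the list called in wild type. Rheb, the GTPase that activates mTORC1, rose by 0.44 (adjusted p = 0.0455), a call that 19 of 23 alternatives ended. With single arrays left out it was kept only without exercised wild-type replicate 3 or sedentary ERRα-null replicate 1.

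Of 16 tested subunits of the vacuolar ATPase, 2 rose in wild type and 0 fell, against 2.22% and 1.21% of all tested genes. Atp6v1b2, a catalytic-sector subunit, was at 8.73, 8.79 and 8.52 in sedentary and 9.63, 9.97 and 9.64 in exercised wild type. In ERRα-null muscle it was at 8.56, 8.82 and 8.62 before and 9.05, 8.84 and 9.15 after exercise. The rise was 1.07 ± 0.12 in wild type (2.10-fold, adjusted p = 0.00034) and passed under all 23 alternatives run. In ERRα-null muscle the change was 0.35 ± 0.12 (adjusted p = 0.233). After exercise ERRα-null muscle was 0.74 ± 0.12 below wild type (0.601-fold, adjusted p = 0.0286), 1 of 16 against 0.286% of all tested genes, a call lost without any 1 of the 6 exercised arrays and without the arrays of female profile. The difference of the changes was -0.72 ± 0.17 (unadjusted p = 0.00108, adjusted p = 0.598). Atp6v0d1, of the membrane sector, rose by 0.47 ± 0.07 in wild type (adjusted p = 0.00335) and changed by 0.15 in ERRα-null muscle (adjusted p = 0.4). For genotype averaged over both states Atp6v0a2 was lower by 0.24 (0.846-fold, adjusted p = 0.0332), 1 of 16 against 0.999% of all tested genes, kept with single arrays left out only without sedentary wild-type replicate 3, sedentary ERRα-null replicate 3 or exercised wild-type replicate 2.

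Of 12 tested genes of selective autophagy, Retreg1 rose in wild type and Stbd1 in ERRα-null muscle (against 2.22% and 0.383% of all tested genes), and 0 fell in either. Retreg1 encodes a receptor for autophagy of the endoplasmic reticulum. Its levels were 10.27, 10.26 and 10.47 in sedentary and 11.40, 11.44 and 11.37 in exercised wild type, a rise of 1.07 ± 0.09 (2.10-fold, adjusted p = 7.81e-05) that passed under all 23 alternatives run. In ERRα-null muscle the levels were 10.62, 10.53 and 10.71 before and 10.92, 11.23 and 10.86 after exercise, without overlap (0.38 ± 0.09, adjusted p = 0.111). The difference of the changes was -0.68 ± 0.13 (adjusted p = 0.391). Stbd1, which links glycogen to GABARAPL1, was at 7.12, 7.46 and 7.34 before and 7.75, 8.36 and 8.19 after exercise in ERRα-null muscle, a rise of 0.79 ± 0.15 (1.73-fold, adjusted p = 0.0428). In wild type it was at 7.16, 7.24 and 6.96 before and 7.44, 7.41 and 7.70 after, also without overlap (0.40 ± 0.15, adjusted p = 0.215). Here the larger change was in ERRα-null muscle, and the difference of the changes was 0.40 ± 0.22 (adjusted p = 0.997). The call in ERRα-null muscle was kept with single arrays left out only without sedentary wild-type replicate 3, exercised wild-type replicate 2 or 3 or exercised ERRα-null replicate 1. Averaged over genotypes Stbd1 rose by 0.60 ± 0.11 (1.51-fold, adjusted p = 0.00656). Bcl2l13, a mitophagy receptor, was higher in ERRα-null muscle by 0.40 ± 0.06 averaged over both states (1.32-fold, adjusted p = 0.00921), 1 of 12 against 0.428% of all tested genes. Of these, Stbd1 and Bcl2l13 did not pass without the arrays of female profile. Among 25 other tested autophagy genes, Nrbf2, a subunit of the lipid kinase complex, fell by 0.31 in the average (adjusted p = 0.0486) and 0 rose, a share of falls near the 3.43% of all tested genes. Its call was kept with single arrays left out only without sedentary wild-type replicate 1, sedentary ERRα-null replicate 1, exercised wild-type replicate 2 or exercised ERRα-null replicate 1.

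Averaged over genotypes, exercise lowered 9 of 32 other lysosomal hydrolases and raised 1, against 3.43% lower and 3.14% higher among all tested genes, and the median change of the list was -0.21. Arsb, a sulfatase, was at 7.45, 7.61 and 7.73 in sedentary and 7.06, 7.23 and 6.95 in exercised wild type. In ERRα-null muscle it was at 7.67, 7.46 and 7.29 before and 7.04, 6.85 and 7.12 after exercise, so that no exercised array reached any sedentary one. It fell by 0.49 ± 0.09 in the average (0.711-fold, adjusted p = 0.00505). Ctso, cathepsin O, fell by 0.46 ± 0.08 (adjusted p = 0.00735), Sgsh, the heparan sulfamidase, by 0.44 ± 0.09 (adjusted p = 0.0145) and Asah1, acid ceramidase, by 0.30 ± 0.06 (adjusted p = 0.0146). The riser was Gla, alpha-galactosidase, at 0.58 ± 0.13 (adjusted p = 0.0177), which in the average was named after its values were seen. In wild type alone 1 of the 32 rose and 3 fell, against 2.22% and 1.21% of all tested genes. Gla rose there by 0.88 ± 0.18 (adjusted p = 0.0202). Lipa (-0.53), Arsb (-0.51) and Ctso (-0.50) fell, with adjusted p of 0.0291, 0.04 and 0.0421. In ERRα-null muscle Gla changed by 0.28 (adjusted p = 0.536) and 0 of the list were called. Of 23 alternatives, 6 ended the wild-type call of Gla, 9 that of Lipa and 14 each those of Arsb and Ctso. Among 14 other lysosomal membrane proteins, 0 were called for exercise by limma, averaged or in either genotype.

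Macrophages are rich in lysosomes, and their markers are given beside the hydrolases for that reason. The mean level of 15 of 15 macrophage markers ran from 6.69 to 7.06 in sedentary wild type, 6.55 to 7.11 in sedentary ERRα-null, 6.55 to 6.85 in exercised wild type and 6.49 to 6.66 in exercised ERRα-null muscle. Within each genotype the ranges before and after exercise overlapped. The range in sedentary wild type (6.69 to 7.06) lay wholly above that in exercised ERRα-null muscle (6.49 to 6.66). Of the listed markers Ptprc varied most, from 5.41 to 8.81 over all arrays. The macrophage mean was highest (7.11) on sedentary ERRα-null replicate 1, where the lymphocyte mean was also highest (8.0). The part of lymphocytes in the macrophage mean was not tested. For exercise averaged over genotypes the markers had a median change of -0.07 with 12 of 15 below 0 (80%), against -0.01 and 52% over all tested genes. Of the 15, 1 was called, against 6.57% of all tested genes called in either direction and 3.43% called lower. It was Csf1r, the macrophage growth factor receptor, which fell by 0.42 (adjusted p = 0.042). With this mean as a covariate 3 hydrolases fell (Arsb, Asah1 and Ctso). With adipocyte, liver and lymphocyte means as covariates 1 fell, and without the 3 arrays of female profile 0 fell by limma. With each single array left out in turn, from 5 to 9 fell, and without exercised ERRα-null replicate 2 alone, 5 fell. Of the 9 calls of a fall, the least stable was lost in 11 of these 12 fits. The part of other cells in these falls was not tested beyond these values.

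**Figure D5:**
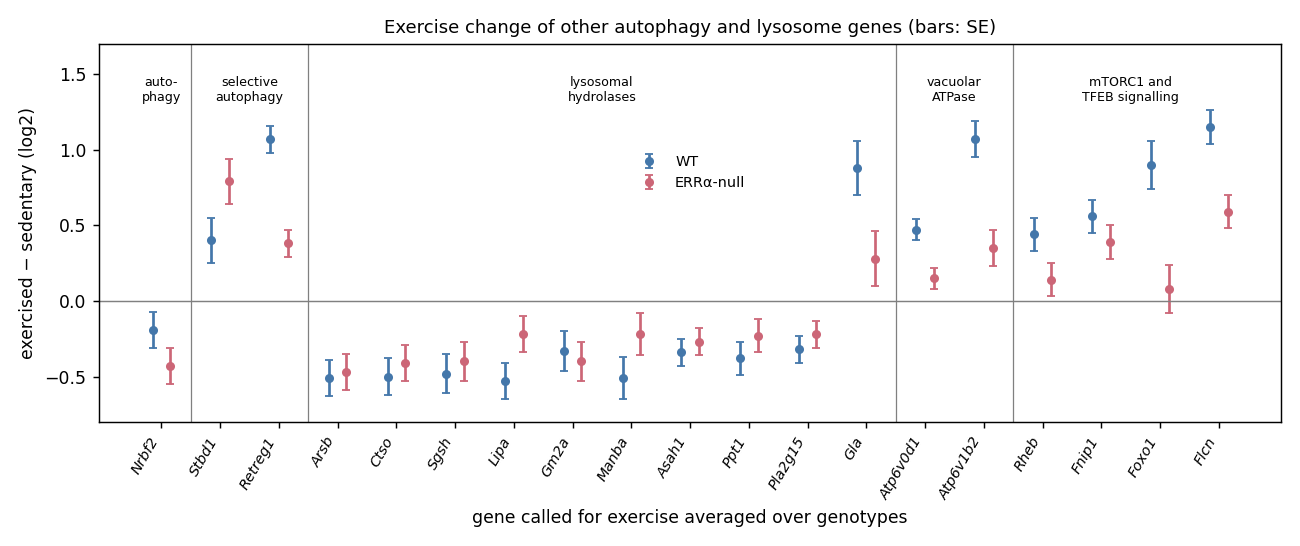
Change with exercise in log2 (y axis) of the genes of 5 further lists that were called for exercise averaged over genotypes (x axis, by list), in wild type and ERRα-null muscle, with the SE of the limma model. Flcn (1.15), Retreg1 (1.07) and Atp6v1b2 (1.07) rose most in wild type. The 9 hydrolases called lower in the average lie below 0 in both genotypes, and the average was made from the same changes.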

How the data were processed

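Gastrocnemius RNA of 4 groups, with 3 biological replicates each, was read on 12 Affymetrix Mouse Gene 2.0 ST arrays. The authors deposited log2 expression values, made with Expression Console, Transcriptome Analysis Console (both of Affymetrix) and the RMA method per the submitters' processing notes. RMA puts all arrays on a common distribution, so differences are relative to the bulk of transcripts, and changes of dim transcripts are compressed. Array medians ran from 5.15 to 5.26, and correlations between 2 arrays over all probesets from 0.97 to 0.987. The genome build of the values is not given in the sources used here. The number of arrays limits the precision.

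Of 41345 probesets, 23521 carry 1 symbol, and 23328 of these matched RefSeq GRCm38.p6. The probeset with the highest mean stood for a gene. The 40% of genes with the lowest mean, under 5.32, were not tested. Tests used limma 3.58.1 in R 4.3.3, with 4 group means, 8 residual degrees of freedom, an intensity trend, two-sided p-values and Benjamini-Hochberg adjustment over 13308 genes in each of 7 comparisons. A gene was called at an adjusted p under 0.05. The members, lists and tests were chosen with earlier results of these data known. All members are named by level, those called or among the 5 with the smallest p also by difference and adjusted p, and up to 4 called genes of each other list and comparison. Trmt112 and Dpp3 lie outside this rule, and Gla lies outside it for the average only. Deviations of same-numbered arrays correlated by 0.31, 0.21 and 0.17 for genotype after exercise, where the number was taken to pair the arrays, and the block there changed no call. The values given above for that comparison are from the model without the block. With the block on only the arrays compared, adjusted p was 0.0685 for Gabarapl1 and 0.0947 for Ctsf. In the other comparisons at least 1 pair was under 0.1. The model was run on simulated arrays with independent noise in each gene, a setting without the tissue differences between the arrays used here.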

Additional observations from a re-analysis of the deposited data

How the results depend on the processing

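None of the single-gene differences recomputed, those with the 5 smallest p in each comparison, changed sign. Medians over the 35 genes did, at rest (0.02, and -0.03 without sedentary ERRα-null replicate 3) and for exercise in wild type (0.04, and -0.06 with the tissue scores). The count of members called for genotype at rest fell from 1 to 0 with each array centred on its median, with adipocyte, liver and lymphocyte scores as covariates, without the arrays of female profile and with only the arrays compared, and ran from 0 to 1 without single arrays. For genotype after exercise it rose from 0 to 1 with 60% of genes left out (Ctsf, adjusted p = 0.0405) and ran from 0 to 1 without single arrays. For exercise in wild type it fell from 2 to 1 with centring, with no filter on dim genes, with the macrophage score and with only the arrays compared, and to 0 with the tissue scores and without the arrays of female profile, and ran from 1 to 2 without single arrays. For genotype averaged it fell from 1 to 0 without the arrays of female profile. For exercise averaged it fell from 2 to 1 with the macrophage score and to 0 with the tissue scores and without the arrays of female profile, and ran from 1 to 2 without single arrays. For exercise in ERRα-null muscle and for the interaction it was 0 under every alternative run. Leaving out the arrays of female profile leaves 1 exercised ERRα-null array, which is assumed to vary like the others, so that fewer samples stand behind each test. The causes of the other changes were not tested.

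With a replicate block in the model, the count for genotype at rest fell from 1 to 0 on all arrays (Ctsf 0.72, adjusted p = 0.0592). On only the arrays compared it was 0 with the block (adjusted p = 0.649) and 0 without it. For exercise in wild type the count on only the arrays compared was 1, Gabarapl1, with and without the block. Pik3r4 was not called there with the block (adjusted p = 0.191). Set against the same arrays without the block, the block changed only the count for genotype at rest on all arrays. Over all alternatives Ctsf averaged over states ran from 0.56 to 0.64, Gabarapl1 in wild type from 0.80 to 1 and Pik3r4 in wild type from -0.41 to -0.32.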
